A study of Mus musculus with 2 samples.

Results

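The Kruppel-like factors Klf2, Klf3, Klf4, Klf6, Klf10 and Klf13 were followed in single mouse leukemia cells. The 6 genes were taken by symbol from the 31053 genes of the count matrices. They had been chosen by their measured values in these same cells, as factors that looked tied to resting cells or to cells with mast cell proteases, so their levels in those cells are a description. The study compared 2 libraries, 1 per group, and each was made from the pooled cells of 3 mice with no label that maps cells to mice. In both groups, recipient mice carried transplanted leukemia cells with the AE9a fusion and GFP, in which Usp18 was floxed and UBCER-Cre, a recombinase under a ubiquitous promoter, could be switched on by tamoxifen. Sick mice received oil or tamoxifen, and Lin- c-Kit+ GFP cells of the spleen were sorted 3 days after the first injection, with 8000 cells targeted per library. Genotype and treatment labels place a homozygous deletion in the tamoxifen group, whereas the treatment protocol describes Usp18+/f cells and a heterozygous one. The samples are titled batch 2, and the paper describes a further single-cell experiment on Usp18f/f and Usp18Δ/Δ cells. The groups are named by injection.

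Kruppel-like factors are transcription factors with zinc fingers that bind GC-rich and CACCC sequences, and members of the family hold cells out of the cell cycle or push them to differentiate. Klf2 is best known for keeping T cells and monocytes quiescent, and flow, MEK5 and ERK5 kinase signals and MEF2 factors raise it. Klf6 and Klf10 are induced quickly by growth factors and TGF-beta, Klf3 is a repressor that works through CtBP, Klf4 acts in monocytes and stem cells, and Klf13 was described in T cells and erythroid cells.

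The library labelled oil kept 6838 cells with 66045700 UMIs (distinct captured transcripts) and the library labelled tamoxifen kept 6472 cells with 60661486 UMIs. Median depths were 8622.5 and 8209.5 UMIs per cell, and 12 barcodes occurred in both libraries, 0 of them with identical counts. With 1 library per group no test was possible, so intervals are 95% intervals that cover counting error only, and no difference could be set against the spread between mice. Usp18, the targeted gene, had 371 UMIs in the library labelled oil, against 933 in the library labelled tamoxifen, a log2 ratio of 1.45 (1.28 to 1.63) that goes against the label, although 3′ reads need not show a deleted exon. Isg15, a gene that interferon induces and whose response USP18 is known to restrain, was at 47.8 and 113.5 CPM, a log2 ratio of 1.25 in the direction that the label would give. Kit was measured at 171 and 232 CPM (UMIs of a gene scaled to the same total in each library), while Ptprc, the common leukocyte antigen, had 9 and 3 UMIs. Of the marker lists of other cells, neutrophil genes summed to 1 UMI in each library, B cell genes to 14 and 11, T cell genes to 20 and 28, mostly Lck, and NK cell genes to 29 and 38, all Nkg7. Endothelial genes summed to 87 and 107 UMIs, 46 and 46 of them Tek, with Cdh5 and Emcn at 0. Megakaryocyte and platelet genes summed to 470 and 596 UMIs, mostly Itga2b, and reached 40.1 and 36.9 CPM in a cluster. Monocyte and macrophage genes summed to 233 and 240 UMIs, or 3.53 and 3.96 CPM, and by cluster to between 0 and 11.5 CPM.

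Because Klf2 and Klf6 had the lowest ratios between the libraries and Klf13 the highest, the 250 bases upstream of their start sites are shown. They are from RefSeq (GRCm38.p6), which held 5 of the 6 genes. RefSeq starts can differ from the GENCODE gene positions given below, and the windows of Klf2 and Klf6 end inside the GENCODE gene. Each is written 5′ to 3′ along the gene, and capitals mark matches to a searched motif. Klf2 is read from chr8:72318812-72319061 on the plus strand, Klf6 from chr13:5861239-5861488 on the plus strand and Klf13 from chr7:63938916-63939165 on the minus strand.
Klf2: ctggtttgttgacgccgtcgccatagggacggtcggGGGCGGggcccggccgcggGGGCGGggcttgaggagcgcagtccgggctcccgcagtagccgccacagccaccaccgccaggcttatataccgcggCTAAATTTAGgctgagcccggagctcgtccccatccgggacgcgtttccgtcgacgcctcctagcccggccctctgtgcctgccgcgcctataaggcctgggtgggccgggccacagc
Klf6: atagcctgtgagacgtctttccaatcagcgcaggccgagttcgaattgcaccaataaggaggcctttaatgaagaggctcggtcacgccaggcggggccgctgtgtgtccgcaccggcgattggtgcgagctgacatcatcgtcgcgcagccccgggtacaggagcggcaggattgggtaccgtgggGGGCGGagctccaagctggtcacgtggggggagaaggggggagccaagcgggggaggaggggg
Klf13: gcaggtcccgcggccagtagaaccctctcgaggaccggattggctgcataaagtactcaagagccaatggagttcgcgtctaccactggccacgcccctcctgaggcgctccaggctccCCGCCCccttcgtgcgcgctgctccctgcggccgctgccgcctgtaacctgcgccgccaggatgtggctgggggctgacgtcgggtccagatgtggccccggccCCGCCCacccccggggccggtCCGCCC

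On both strands of each window, 10 motifs were searched: the GC box (GGGCGG), the cyclic AMP element (TGACGTCA), the AP-1 site (TGANTCA), the FOXO site (TGTTTAC), the STAT site (TTCNNNGAA), the interferon response element (GAAANNGAAA), the CACCC box (CCACACCC), the GATA site (AGATAAG), and by name alone MEF2 and the serum response element. The GC box matched all 5 windows, with 2 matches in Klf2, 6 in Klf3, 4 in Klf4, 1 in Klf6 and 3 in Klf13, and it occurred in 32.7% of 32851 windows of the same length. MEF2 matched Klf2 alone of the 5, at 118 to 109 bases before the RefSeq start, where the match reads the same on both strands. Of all windows, 2.92% held one. The other 8 motifs matched none of the 5 windows. GC content was between 64.8% and 78.4%, against a median of 52.4% over all windows. A match is a string of letters and was not tested as a binding site.

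Over all cells, Klf6 and Klf2 were lower in the library labelled tamoxifen, Klf3 slightly lower, Klf13 slightly higher and Klf10 alike within counting error. Klf6 (ENSMUSG00000000078, chromosome 13, 5861482 to 5870394, plus strand, GRCm38) had 10485 UMIs, or 159 CPM (156 to 162), in the library labelled oil, against 6720 UMIs, or 111 CPM (108 to 113), in the library labelled tamoxifen. Its log2 ratio of tamoxifen over oil was -0.52 (-0.56 to -0.47). Klf2 (ENSMUSG00000055148, chromosome 8, 72319033 to 72321656, plus strand) had 5076 UMIs at 76.9 CPM and 3490 UMIs at 57.5 CPM, a log2 ratio of -0.42 (-0.48 to -0.36). These were the lowest ratios among the members: 2.04% of 10527 genes with at least 100 UMIs had a lower ratio than Klf6, and 4.84% a lower ratio than Klf2, around a median over all genes of -0.063.

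Klf3 (ENSMUSG00000029178, chromosome 5, 64803388 to 64832901, plus strand) had 4970 UMIs at 75.3 CPM and 3950 UMIs at 65.1 CPM, a log2 ratio of -0.21 (-0.27 to -0.15). Klf13 (ENSMUSG00000052040, chromosome 7, 63886351 to 63938915, minus strand) had 5103 UMIs at 77.3 CPM and 5401 UMIs at 89.0 CPM, a log2 ratio of 0.20 (0.15 to 0.26). Klf10 (ENSMUSG00000037465, chromosome 15, 38291463 to 38300706, minus strand) had 684 UMIs at 10.4 CPM and 614 UMIs at 10.1 CPM, and its interval of -0.19 to 0.13 held 0. Klf4 (ENSMUSG00000003032, chromosome 4, 55527143 to 55532466, minus strand) had 12 UMIs in each library, each in a different cell, at 0.182 CPM (0.0939 to 0.317) and 0.198 CPM (0.102 to 0.346). It was therefore too sparse for any comparison, and the counts by cell below concern the other 5 members. Without the cells of the immediate early class described below, an alternative chosen after the data were seen, the ratios were -0.25 for Klf2, -0.12 for Klf3, -0.33 for Klf6 and 0.29 for Klf13. None of the 5 was 1.5-fold higher or lower between the libraries. Of all 10527 genes, 2.09% were at least 1.5-fold higher and 1.27% at least 1.5-fold lower in the library labelled tamoxifen. UMI counts were not divided by gene length, so levels are not compared between genes. In sums over all cells, fewer cells with a gene and less RNA per cell cannot be told apart.

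Klf2 was concentrated in few cells, and Klf6 less so. To set cells of different depth side by side, each cell was thinned to 3000 UMIs, which 6330 and 6127 cells reached and 508 and 345 did not. Klf2 was then detected in 11.8% of cells (11.0% to 12.6%) of the library labelled oil and 8.41% (7.72% to 9.13%) of the library labelled tamoxifen, where the same UMIs spread evenly would have reached 33.0% and 24%. Without thinning the shares were 16.4% and 12.6%. Only 144 cells, 2.11% of the library labelled oil, carried 50% of its Klf2 UMIs, and 95 cells, 1.47%, did so in the library labelled tamoxifen, with up to 71 and 62 Klf2 UMIs in a cell. Intervals of levels and ratios take each UMI as a separate draw, so for Klf2 they leave out this spread between cells. Thinned shares of Klf6 were 32.9% and 25.4%, against 47.7% and 35.8% for an even spread, and 50% of its UMIs lay in 10.2% and 9.46% of cells.

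Klf13 was found in 22.4% and 25.7% of thinned cells, against 23.9% and 27.9% for an even spread, and Klf3 in 20.1% and 18.8%, against 23.8% and 21.0%. Klf10 was found in 4.20% (3.72% to 4.73%) and 3.56% (3.11% to 4.05%) of thinned cells, and with so few UMIs this share says nothing of how evenly it was spread. Unthinned shares ran from 9.02% and 8.51% for Klf10 to 54.8% and 46.5% for Klf6. All cells come from 1 sorted population, so no cell type that lacks these genes was at hand to give the share that free RNA would produce.

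**Figure D1:**
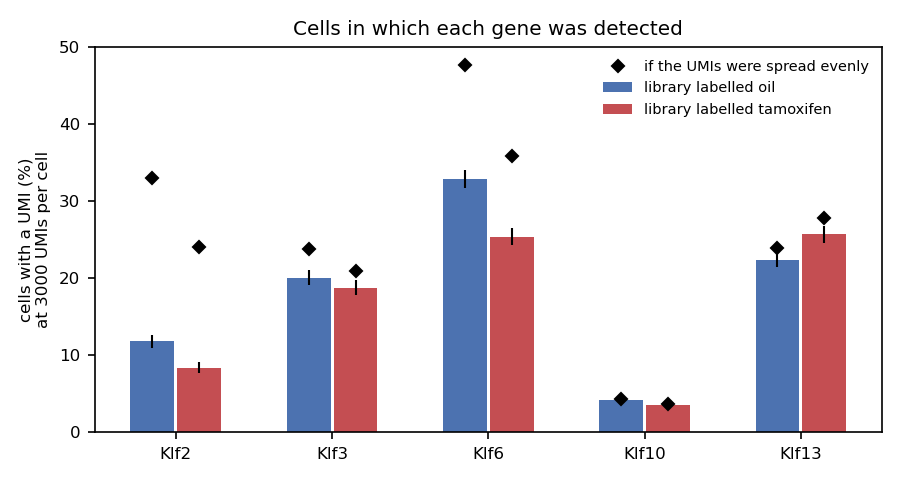
Bars show the percent of cells with at least 1 UMI of each gene after thinning to 3000 UMIs per cell, by library, with exact 95% intervals, and diamonds the percent that an even spread of the same UMIs would give. Klf2 reached 11.8% and 8.41% of cells where an even spread would give 33.0% and 24%, and the few UMIs of Klf10 place its bar near its diamond however they are spread.

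The other members were detected more often in cells with a Klf2 UMI than in cells without one. Among thinned cells of the library labelled oil with a Klf2 UMI, 71.5% (68.1% to 74.7%) also had a Klf6 UMI, against 27.7% (26.5% to 28.9%) of cells without Klf2. The corresponding shares in the library labelled tamoxifen were 63.5% (59.2% to 67.7%) and 21.9% (20.8% to 23%). Klf3 was found in 44.7% and 39.2% of Klf2 cells and in 16.8% and 16.9% of the others. Klf13 was found in 44.0% and 43.9% of Klf2 cells, against 19.5% and 24.1%, and Klf10 in 8.84% and 9.32%, against 3.58% and 3.03%.

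To ask which members were confined to resting cells or to mast protease cells, cells were ranked by the thinned counts of gene lists that hold no Kruppel-like gene, and the highest 10% over both libraries formed each class. The resting list was Ddit4, Per1 and Tsc22d3, which growth factor withdrawal, the clock and glucocorticoids are known to raise. This class held 493 cells, 7.79%, of the library labelled oil and 753 cells, 12.3%, of the library labelled tamoxifen, and 86.0% and 86.1% of its cells were called G1, against 39.3% and 52.9% of the other cells. The cut fell at 1 UMI, where 93 and 148 cells were inside and 943 and 1157 outside, and these ties were ordered by the share of the list at full depth. The mast protease class, ranked by 14 genes such as Mcpt1, Cma1 and Cpa3, held 751 cells, 11.9%, and 495 cells, 8.08%, all of which had passed a sort on Kit, a receptor that mast cells carry. Of the resting class, 40.4% and 20.1% also belonged to the mast protease class. Cells of each class were shallow: median depths were 4496 and 5331 UMIs in the resting class, against 9805 and 9164.5 outside it. In the mast protease class they were 4607 and 4744 UMIs, against 10153 and 9000.5. CPM is a share of all UMIs. A higher CPM inside a class thus need not mean more UMIs of a gene per cell.

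No member was confined to either class: none had 50% or more of its UMIs there in both libraries. Over all genes, 0% reached that share in the resting class and 0.057% in the mast protease class. The resting class held 4.12% and 7.89% of the UMIs of all ranked cells, and the mast protease class 6.02% and 4.48%. No gene reached 50% in the resting class, its own list included, so failing to reach it says little about a member. Klf2, Klf6 and Klf10 were at least 2-fold higher inside the resting class in both libraries, 3 of the 5 measured members, where 3.71% of all genes were. Klf2, Klf6, Klf10 and Klf13 were at least 2-fold higher inside the mast protease class in both libraries, 4 of 5, against 8% of all genes. These classes were the basis on which the members were chosen, so nothing is read from these counts.

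Klf2 was at 477 CPM (452 to 504) inside and 54.5 CPM (52.7 to 56.4) outside the resting class of the library labelled oil, a log2 difference of 3.13, and at 220 CPM (207 to 234) and 38.8 CPM (37.2 to 40.5) in the library labelled tamoxifen, a log2 difference of 2.50. The resting class held 27.3% and 32.7% of its UMIs. In the mast protease class it was at 376 and 241 CPM, against 52.5 and 44.3 CPM outside, and 31.4% and 20.3% of its UMIs lay there. Klf6 was at 468 and 258 CPM in the resting class, against 140 and 93.2 CPM outside, and at 442 and 294 CPM in the mast protease class, against 135 and 97.4 CPM. Its shares of UMIs were 12.5% and 19.1% in the resting class and 17.3% and 12.4% in the mast protease class.

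Klf10 had 24.3 and 19.7 CPM inside the resting class and 9.58 and 9.11 CPM outside, and 26.3 and 24.6 CPM inside the mast protease class against 9.15 and 9.26 CPM. Klf13 had log2 differences of 1.30 and 0.89 for the resting class and 1.15 and 1.05 for the mast protease class. Klf3 passed 2-fold in the library labelled oil alone, with 1.44 and 0.76 for the resting class and 1.17 and 0.84 for the mast protease class. In cells of both classes Klf2 reached 701 and 288 CPM, in cells of the resting class alone 366 and 208 CPM, in cells of the mast protease class alone 280 and 224 CPM, and in cells of neither class 43.0 and 31.9 CPM. Klf13 was at 208 and 212 CPM in cells of both classes and at 67.6 and 79.4 CPM in cells of neither.

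In cells with many immediate early transcripts (Fos, Jun, Egr1, Zfp36 and others, genes that stimulation, tissue handling included, raises within minutes), all 5 measured members were at least 2-fold higher in both libraries, against 5.03% of all genes. This class held 881 cells, 13.9%, of the library labelled oil and 365 cells, 5.96%, of the library labelled tamoxifen. Of these cells, 61.7% and 60% lay in cluster 0, described below. The mast protease class held 26.4% and 20.8% of them and the resting class 20.8% and 33.2%. The count of 5 members is therefore not independent of how the members were chosen. Median depths were 5427 and 4962 UMIs inside and 10103 and 8858 outside. Klf6 was at 643 and 674 CPM inside and 107 and 85.7 CPM outside, and Klf2 at 429 and 629 CPM inside and 38.2 and 32.3 CPM outside. In a class ranked by globin genes Klf2 alone was 2-fold higher, at 207 and 203 CPM against 61.1 and 38.1 CPM, where 2.23% of all genes were.

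**Figure D2:**
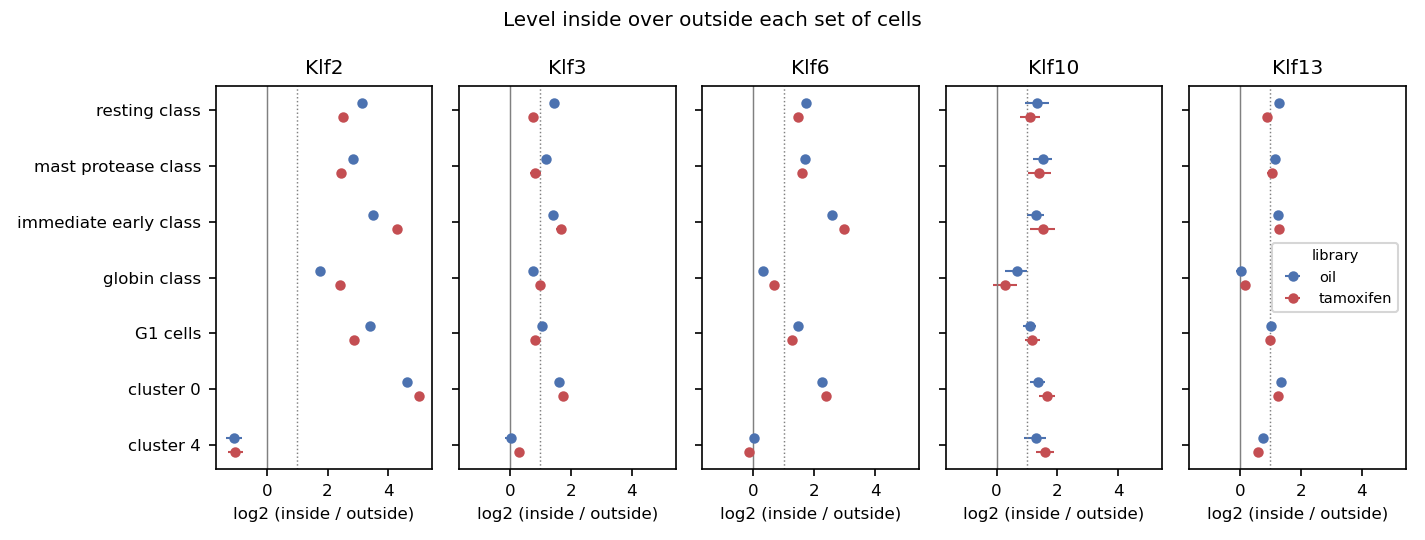
Points give the log2 level of each gene inside over outside each set of cells, in the 2 libraries, with 95% counting intervals. The solid line marks no difference and the dotted line 2-fold. Klf2 lies farthest to the right in cluster 0, where it was 24.4-fold and 31.98-fold higher. In cluster 4 it lies left of 0, with cluster 0 among the cells outside.

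Levels of Klf2 and Klf6 rose from range to range of the resting, mast protease and immediate early scores. The cut of the resting class fell among cells with 1 UMI of its list, so these ranges cannot show a step there. Klf3 and Klf10 did not rise at every step of the mast protease score in the library labelled tamoxifen. In the library labelled oil, Klf2 was at 42.8 CPM in cells with no UMI of the resting list, 158 CPM in cells with 1, 324 CPM in cells with 2 and 863 CPM in cells with 3 or more. In the library labelled tamoxifen the steps were 30.4, 87.7, 174 and 348 CPM. Klf6 went from 128 to 669 CPM and from 83.7 to 403 CPM over the same range, and the library labelled oil was higher at every step for both genes. Klf2 in cells without a mast protease UMI was at 15.8 and 13.9 CPM, and in cells with 40 or more at 421 and 274 CPM.

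**Figure D3:**
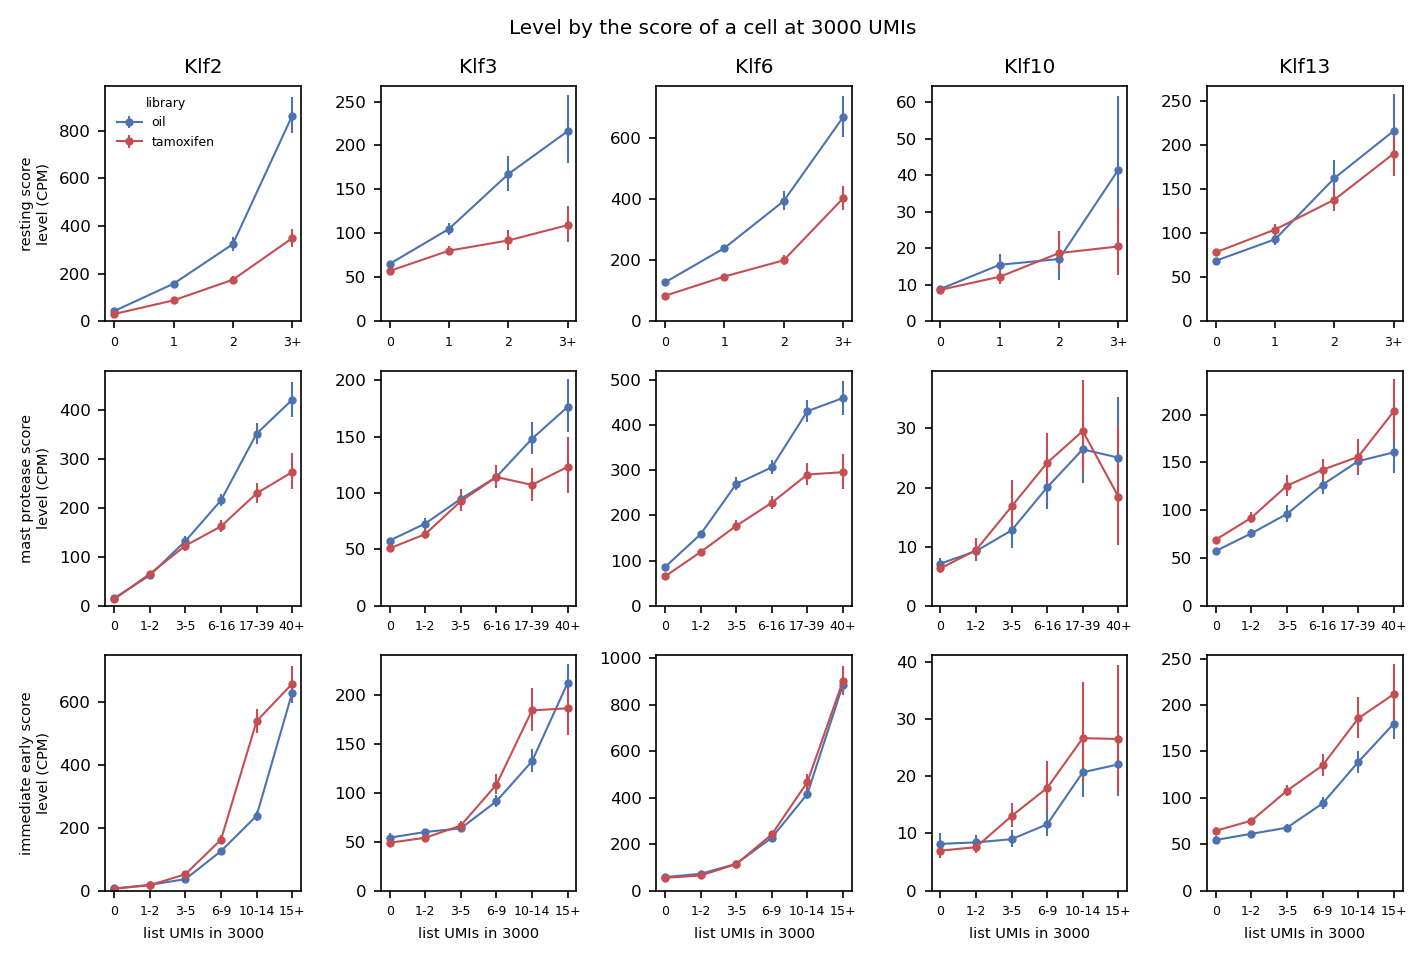
Each panel gives the level of 1 gene (CPM, linear axis from 0) in cells grouped by the number of UMIs of a list among 3000, for the resting, mast protease and immediate early lists, in both libraries with 95% counting intervals. Klf6 in the library labelled oil lies above the other library along the resting and mast protease scores, and the lines of the libraries run close together along the immediate early score.

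Clusters were formed without any Kruppel-like gene among the variable features, and cluster 0 set Klf2 apart by a larger fold than any of the 4 score classes did, which was not so for Klf6. Cluster 0, whose leading genes were S100a6, Mcpt1, Klf2, Fxyd5 and Ahnak, held 1801 cells, 26.3%, of the library labelled oil and 1270 cells, 19.6%, of the library labelled tamoxifen, and 94.2% and 95.5% of them were called G1. All 5 measured members were at least 2-fold higher there in both libraries, as were 9.64% of all genes. Its cells were shallow too, with medians of 4610 and 4711 UMIs, against 8622.5 and 8209.5 over all cells. Klf2 alone had 50% or more of its UMIs in cluster 0, 79.6% and 79.9%, a share that 0.598% of all genes reached. Because cluster 0 held 70.3% and 51.9% of the mast protease class, these counts and shares are not independent of how the members were chosen. Klf2 was at 443 CPM (430 to 457) and 417 CPM (401 to 432) in cluster 0, against 18.2 and 13.0 CPM in all other cells. It was at 5.44 and 3.84 CPM in cluster 1, where 55.9% and 58.4% of cells were called S, and at 5.62 and 1.74 CPM in cluster 2, led by histone genes.

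Cluster 4, led by Cpa3, Cx3cr1 and Trnp1 and with the IgE receptor gene Fcer1a also among its leading genes, held 562 and 812 cells, of which 96.0% and 96.8% were called G1. Nearly all cells of clusters 0 and 4 were thus in G1, but Klf2 was high in cluster 0 alone of the pair. Klf2 was at 37.5 CPM (31.0 to 45.0) and 29.3 CPM (24.7 to 34.5) in cluster 4, with log2 differences from all other cells of -1.07 and -1.04. Those other cells include cluster 0, which held most Klf2 UMIs. In both libraries Klf2 was higher in cluster 4 than in clusters 1, 2, 3 and 6, and lower than in clusters 0 and 7. For clusters 5 and 8 the order differed between the libraries. Klf10 was at 23.6 and 26.4 CPM in cluster 4 and 21.7 and 25.7 CPM in cluster 0, with intervals that overlapped, and was the member that was at least 2-fold higher in cluster 4 in both libraries, where 6.96% of all genes were. Klf13 had 128 and 130 CPM in cluster 4, and Klf6 163 and 102 CPM. The 2 clusters differed in their proteases too: the chymase gene Mcpt1 was at 1244 and 844 CPM in cluster 0 and 16.5 and 14.8 CPM in cluster 4, and the carboxypeptidase gene Cpa3 at 622 and 394 CPM in cluster 0 and 3249 and 2404 CPM in cluster 4.

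The clusters also divided the mast protease class. Its cells in cluster 0, 70.3% and 51.9% of the class, had Klf2 at 516 and 442 CPM, and its cells in cluster 4, 22% and 34.3% of the class, at 54.2 and 36.8 CPM. Cells of cluster 0 outside the class still had Klf2 at 393 and 396 CPM. The resting class was divided in the same way. It lay to 57.6% and 31.5% in cluster 0, to 26.8% and 23.6% in cluster 4 and to 1.42% and 26.2% in cluster 5, and Klf2 was at 852 and 743 CPM in its cells of cluster 0, at 62.0 and 42.9 CPM in its cells of cluster 4, and at 28.8 CPM in the 197 cells of cluster 5 from the library labelled tamoxifen. Klf10 in the resting class was at 30.4 and 37.4 CPM in cluster 0 and at 25.1 and 30.9 CPM in cluster 4.

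**Figure D4:**
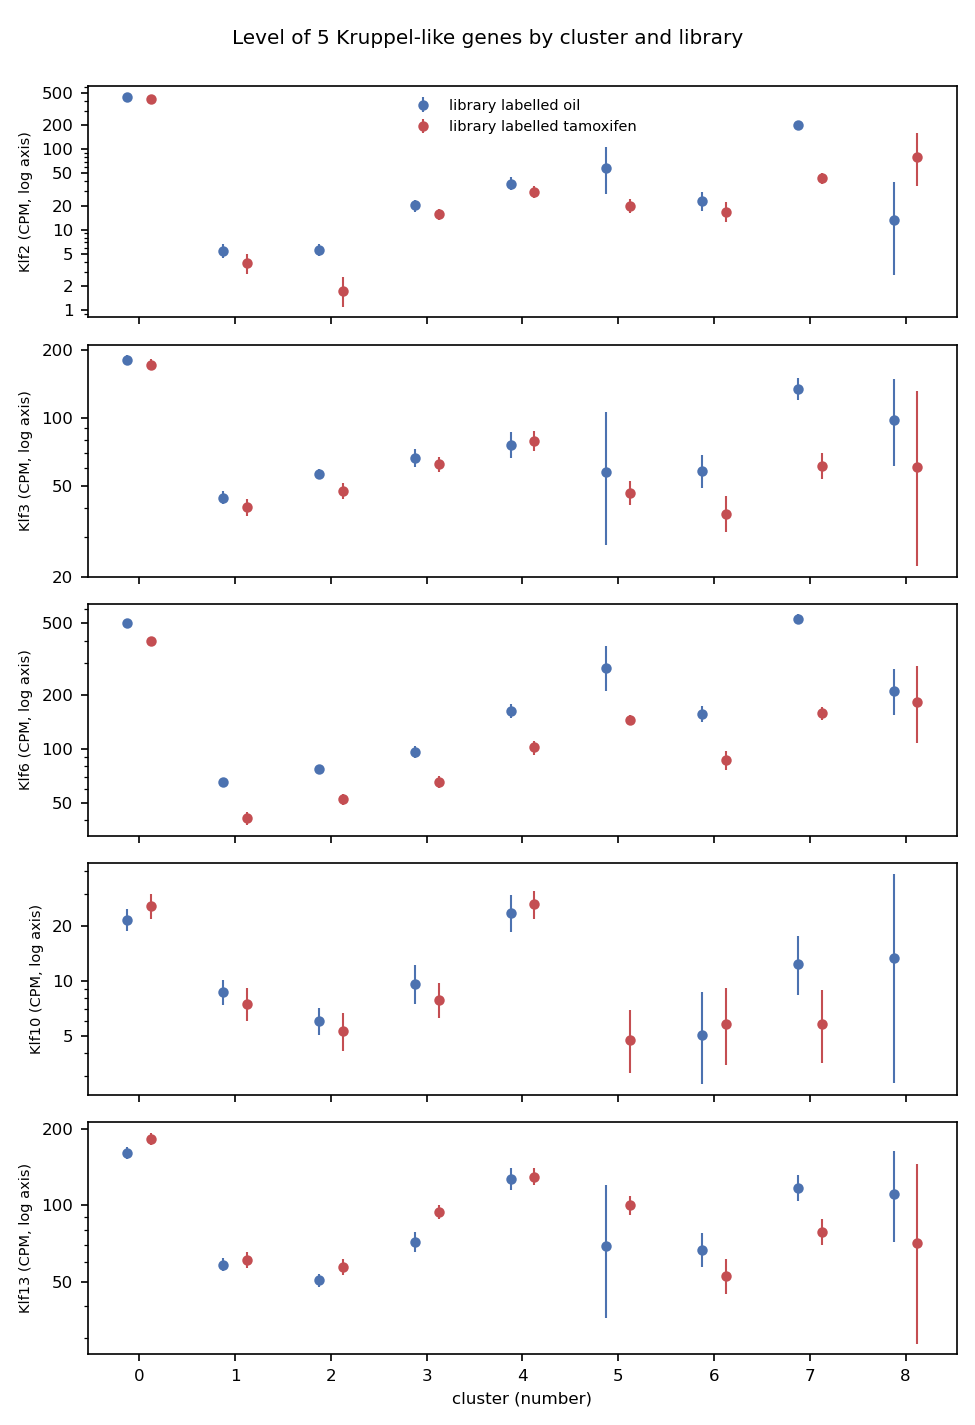
Points give the level of each gene (CPM, log axis) in the 9 clusters of each library, with 95% Poisson intervals, and points with under 3 UMIs are left out. Klf2 stands at 443 and 417 CPM in cluster 0 and at 37.5 and 29.3 CPM in cluster 4, whereas Klf10 is as high in cluster 4 as in cluster 0.

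G1 calls separated the members less than cluster 0 did. Klf2, Klf6 and Klf10 were at least 2-fold higher in G1 than in other cells in both libraries, 3 of 5 against 8.8% of all genes, and Klf2 and Klf6 had 50% or more of their UMIs in G1 cells in both, a share that 5.94% of all genes reached. Most cells of the resting and mast protease classes were called G1, so these counts too are not independent of how the members were chosen. Klf2 was at 210 CPM in G1, 10.5 CPM in S and 25.3 CPM in G2M cells of the library labelled oil, and at 107, 4.07 and 19.97 CPM in the library labelled tamoxifen. Klf6 was at 285, 74.9 and 120 CPM and at 162, 42.9 and 78.3 CPM. For Klf13 the G1 levels were 119 and 123 CPM, and S levels 62.3 and 57.7 CPM. These were 2109 UMIs in 2719 G1 cells and 1030 UMIs in 1304 S cells of the library labelled oil. In the library labelled tamoxifen they were 3087 UMIs in 3492 cells and 681 UMIs in 885 cells. Counted per cell, Klf13 was thus no higher in G1 than in S cells of the library labelled oil, and the gap was far smaller in the library labelled tamoxifen. Klf10 had 293 UMIs in the same G1 cells and 159 in the S cells of the library labelled oil. In the library labelled tamoxifen it had 368 and 104 UMIs. Counted per cell, Klf10 was not higher in G1 than in S cells of either library. The share of G1 cells was 43.0% and 57.0%, and the interval of 45 of 46 S phase genes and 51 of 54 G2M genes lay below 0, with medians of -0.39 and -0.36. Klf2 and Klf6 were thus lower in the library with more cells of the phase in which they were high.

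Within cluster 0 the library ratio of Klf2 was close to 0, at -0.09 (-0.16 to -0.02), and that of Klf6 was -0.34 (-0.41 to -0.27). Klf6 was lower in the library labelled tamoxifen in every cluster from 0 to 7, with intervals below 0, and only in cluster 8, which held 163 and 65 shallow cells, did the interval hold 0. The ratio of Klf2 in cluster 8, 2.60 (0.54 to 5.15), rested on 3 and 8 UMIs. Among clusters 0 to 7 the widest gap of both genes was in cluster 7, a cluster of 223 and 286 cells, 90.9% and 93.0% of them called G2M, in which Klf2 had 197 CPM (180 to 216) in the library labelled oil, against 43.7 CPM (37.1 to 51.3) in the library labelled tamoxifen, a log2 ratio of -2.17, and Klf6 530 and 158 CPM, a log2 ratio of -1.75. In that cluster the mast protease list summed to 1427 and 445 CPM and the immediate early list to 2342 and 800 CPM, and their part in the gap was not tested. Klf13 was higher in clusters 0, 2 and 3, with log2 ratios of 0.19, 0.17 and 0.39, and lower in clusters 6 and 7, at -0.35 and -0.58.

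Inside the resting class the library ratio was -1.12 for Klf2, -0.87 for Klf3 and -0.86 for Klf6, lower than over all cells, and inside the mast protease class -0.64, -0.49 and -0.59. Different clusters hold these classes in the 2 libraries, as given above. Inside the immediate early class the order of Klf2 turned, to 0.55 (0.46 to 0.65), and the interval of Klf6, -0.02 to 0.16, held 0. Klf13, higher over all cells as well, was at 0.35 (0.18 to 0.52).

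**Figure D5:**
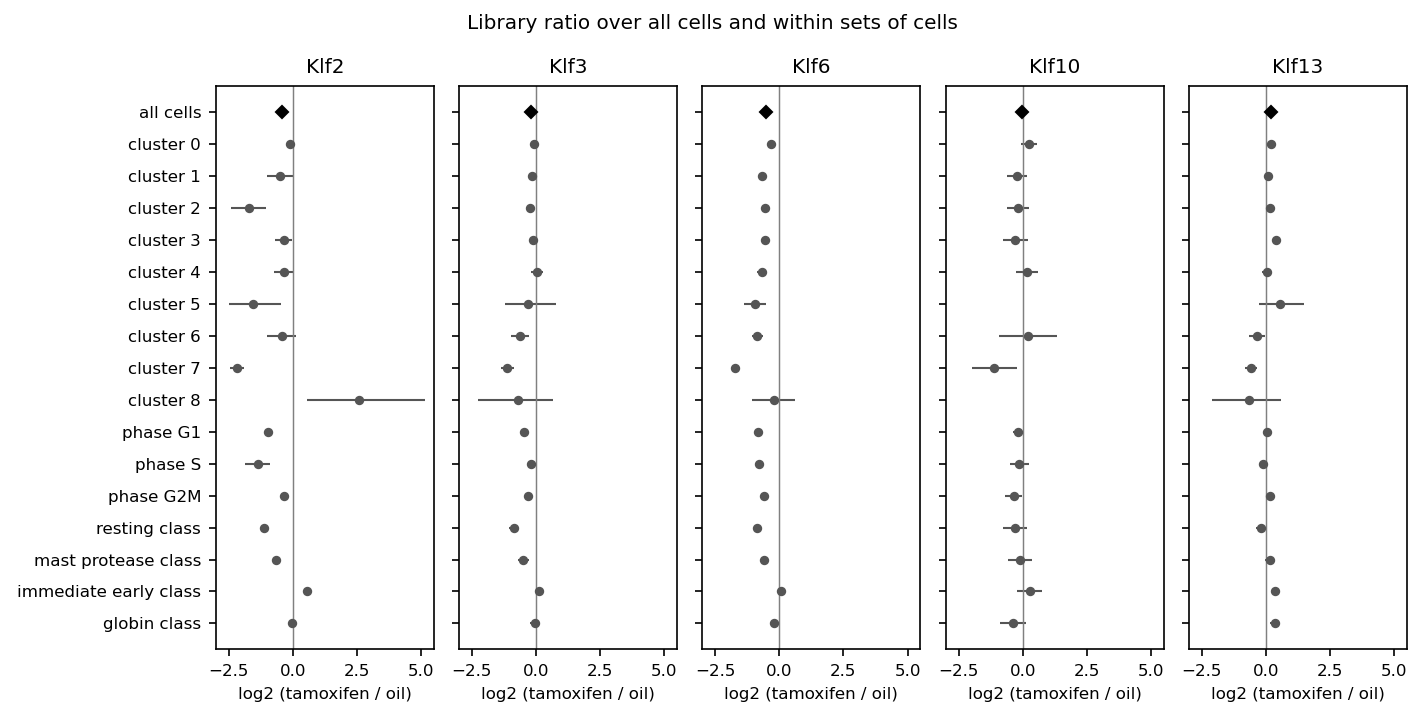
Points give log2 ratios, tamoxifen over oil, for each gene within clusters, phases and classes, with 95% counting intervals, under a diamond for all cells. Sets with under 3 UMIs in a library are left out. Klf6 lies left of 0 in clusters 0 to 7 and at 0.07 in the immediate early class.

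The immediate early list itself differed between the libraries. It summed to 1348 CPM in the library labelled oil, against 832 CPM in the library labelled tamoxifen, with 10 of 11 measured genes below 0 beyond their counting interval and a median log2 ratio of -0.50. Fosb had the lowest ratio at -1.69, followed by Fos at -1.22 and Dusp1 at -1.09, and Fosl2 the highest at 0.36, then Egr1 at -0.31 and Ier2 at -0.34. When each library was given the shares of 6 ranges of the immediate early score found in the library labelled oil, the ratio of Klf6 was 0.02 and that of Klf2 0.46. When levels within ranges were held at those of that library and the shares alone were exchanged, the ratios were -0.51 and -0.83. Klf13 then stood at 0.44 by levels and -0.18 by shares. The same exchange over the other scores kept the gap: by levels, ranges of the resting score gave -0.65 for Klf6 and -0.70 for Klf2, and ranges of the mast protease score gave -0.46 and -0.30. By shares, the resting score gave 0.15 and 0.34, and the mast protease score -0.08 and -0.16. With cluster shares in place of score ranges, levels gave -0.58 for Klf6 and -0.25 for Klf2, and shares gave 0.19 and -0.02. These sums describe how the values fall together and the part of one in the other was not tested.

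The mast protease list was lower too, with 8 of 9 measured genes below 0 and a median of -0.44. Mcpt8, Ctsg and Mcpt1 were lowest at -1.27, -1.13 and -0.82, and Tpsg1, Cpa3 and Cma1 highest at 0.54, -0.13 and -0.28. The resting list was higher: Ddit4 was at 0.87, Per1 at 0.67 and Tsc22d3 at 0.52, all above 0, and in a wider resting list 11 of 14 measured genes were above 0 and 1 below, with a median of 0.25. Over all genes 19.3% had an interval above 0 and 39.8% below 0.

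Among 20 other KLF and SP genes, which share the same zinc finger fold, 10 had at least 100 UMIs, of which 3 were above 0 and 3 below, and the median was -0.04. Klf9, a glucocorticoid-induced member, was highest at 0.50 (0.43 to 0.57), with 47.0 and 66.6 CPM, then Sp4 at 0.17 and Sp3 at 0.08. Klf16 was lowest at -0.16, then Sp2 and Klf7 at -0.11. Klf9 was higher in cluster 4, at 191 and 200 CPM, than in cluster 0, at 87.0 and 98.6 CPM, the reverse of Klf2. Klf1, the erythroid member, was at 76.9 and 75.7 CPM with an interval that held 0.

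Of 21 genes known to act upstream, 18 were measured, 4 above and 5 below 0, with a median of -0.01. Foxo1 (0.49), Foxo3 (0.23) and Nr3c1, the glucocorticoid receptor (0.08), were highest, and Stub1 (-0.39), Mapk7, which encodes ERK5 (-0.34), and Fbxw7, a ubiquitin ligase subunit that targets Klf2 (-0.30), were lowest. Fbxw7 was at 158 and 120 CPM in cluster 0 and at 46.9 and 45.3 CPM in cluster 4. All 13 cofactors were measured, with 1 above and 5 below 0 and a median of -0.07. Ctbp2 (0.12), Fhl3 (0.11) and Crebbp (0.05) were highest, and Hdac3 (-0.27), Hdac2 (-0.27) and Hdac1 (-0.20) were lowest.

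Of 20 genes known as targets, 15 were measured, 4 above and 6 below 0, with a median of -0.02. Bcl2 (0.59), the cell cycle inhibitor gene Cdkn1a (0.56) and Smad7 (0.32) were highest, and Ccne1 (-0.43), Lgals3 (-0.32) and Cdkn1c (-0.27) were lowest, the last with an interval that held 0. Of these 15 targets 5 were at least 2-fold higher in cluster 0 in both libraries, where 9.64% of all genes were, and 1 was at least 2-fold lower. The genes higher there were 1 of 10 other KLF and SP genes, 2 of 18 upstream genes and 1 of 13 cofactors. S1pr1, a sphingosine receptor gene that Klf2 is known to switch on in T cells, was at 25.7 and 20.03 CPM in cluster 0 and 30.1 and 34.8 CPM in cluster 4. Unlike Klf2 it was thus not lower in cluster 4 than in cluster 0. Like Klf2 it was low in cluster 1, at 3.35 and 3.61 CPM, and in cluster 2, at 2.41 and 2.34 CPM.

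The genes whose pattern was most like each member were sought over 17 sums by cluster and library, which share libraries and cell cycle. Klf2 and Klf6 correlated with each other at Pearson r 0.91 on log2(CPM + 1), and Klf10 with Klf2 at 0.29. Most like Klf2 were Ecm1 (0.97), Nrbp1 (0.97) and Anxa11 (0.96), and most like Klf6 were Ecm1 (0.97), Mark2 (0.97) and Anxa11 (0.96). Klf3 was most like Eef2k, Gata2 and Adgre5 (0.96, 0.96 and 0.96), Klf10 like Nbeal2, Casp8 and Dnase2b (0.97, 0.95 and 0.95), and Klf13 like Trak1, Ubn2 and Gramd4 (0.97, 0.96 and 0.95).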

How the data were processed

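Per the labels and the study's methods, the authors used Cell Ranger 3.0.2 and mm10 on libraries of the 3′ V3 chemistry and deposited raw UMI counts per gene and barcode, with no normalization. Seurat is named in the submitters' processing notes. Here, barcodes with 500 or more detected genes were kept if mitochondrial genes held no more than 10% of UMIs. Scrublet marked 5 and 0 cells, or 0.0731% and 0% of cells, and so did not work, and no doublets were removed.

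UMIs were summed over cells and divided by the total to give CPM. Levels have exact Poisson intervals, shares exact Clopper-Pearson intervals and ratios exact conditional binomial intervals, all at 95%. The floor of 3 counts was 0.0454 and 0.0495 CPM. With 1 library per group no test was run, and DESeq2 and edgeR served for scaling alternatives only. Genes were counted from 100 UMIs in both libraries together. Scores, phases and shares used 1 draw of 3000 UMIs per cell, and levels within classes and phases used all UMIs of those cells. Clusters (Seurat, 2000 variable features, 20 principal components, resolution 0.5) used no Kruppel-like gene, no gene 1.5-fold apart between libraries and no interferon, MHC class I, mitochondrial or sex chromosome gene. They keep their numbers and were given no cell type names. Gene positions are from GENCODE M21.

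The members and all lists were chosen with earlier results of these data known. The text names the 6 members, the 3 highest and 3 lowest ratios of each list among genes with at least 100 UMIs, and the 3 genes most like each member. Further genes were named after their values were seen. The ratio and class steps were tested on simulated counts. Steps ran in R 4.3.3 with Seurat 5.3.0, DESeq2 1.42.0 and edgeR 4.0.16, and in Python 3.11.15 with scanpy 1.11.5, scipy 1.17.1, numpy 2.4.6, matplotlib 3.10.9 and pandas 2.3.3. Alternatives covered cell filters, scaling, class size and cut, thinning depth, count minimum and cluster resolution.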

Additional observations from a re-analysis of the deposited data

How the results depend on the processing

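No paired analysis was possible because there is 1 library a group. The counts of members confined to the resting or mast protease class remained 0 under every alternative, and members at least 2-fold higher ranged from 2 to 4 of 5 in the resting class and from 3 to 5 in the mast protease class. No library ratio of a member whose interval lay off 0 changed its sign. With the total taken without mitochondrial and ribosomal protein genes, which moved the median of all genes from -0.063 to 0.02, the ratio of Klf2 was -0.34, Klf3 -0.13, Klf6 -0.44 and Klf13 0.29, and the list medians were 0.039 for other KLF and SP genes and -0.42 for immediate early genes. With a filter of 1000 genes and 5% mitochondrial UMIs, which left 673 and 771 cells, Klf3 was at -0.32, Klf6 at -0.30, Klf10 at 0.40 with an interval of -0.10 to 0.92, and Klf13 at 0.34, the medians of the mast protease and immediate early lists were -0.26 and -0.38, and Klf4 gave no ratio. With all barcodes Klf2 was at -0.49. Alternatives added after the data were seen left out the immediate early class, which gave Klf2 -0.25, Klf3 -0.12, Klf6 -0.33 and Klf13 0.29, or cluster 5 (Klf2 -0.32), or cluster 7 (Klf2 -0.31 and Klf6 -0.42). At minimums of 20 and 500 UMIs, 572 and 105 genes were 1.5-fold higher (220 in the main count), 370 and 73 lower (134), and 595 and 224 were 2-fold higher in the resting class (391), since more or fewer genes were counted. At 2000 UMIs, the G1 log2 differences were 2.98 and 2.62 for Klf2 in the libraries labelled oil and tamoxifen, 0.93 for Klf3 in the library labelled oil and 0.87 for Klf13 in the library labelled tamoxifen. The cause of the other shifts was not tested. At resolution 0.3 and 1.0 the highest Klf2 level was 444 and 688 CPM in the library labelled oil. The remaining limit is the design: library, mice, injection and sort cannot be told apart, and depth left Klf4 unmeasured.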

Other observations

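The 936 and 839 barcodes that the cell filter left out in the libraries labelled oil and tamoxifen also carried the members. Klf2 was at 158 CPM (146 to 170) and 68.0 CPM (60.5 to 76.2) there, Klf3 at 108 and 60.7 CPM, Klf6 at 250 CPM (235 to 266) and 143 CPM (132 to 155), Klf10 at 18.6 and 13.7 CPM, and Klf13 at 91.1 and 103 CPM.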
